A study of Rattus norvegicus with 24 samples.

Results

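Needling without current after surgery was set against surgery alone in the paraventricular nucleus of the hypothalamus (PVN). The samples were chosen by their labels, 3 PVN libraries of the HT + SEA group (hepatectomy and sham electroacupuncture) and 3 PVN libraries of the HT group (hepatectomy), which are 6 of the 24 small RNA libraries of the study. The rats were male Sprague-Dawley rats of 7 weeks, and both groups underwent partial hepatectomy under isoflurane, which took out roughly 20% of the left lobe of the liver. HT + SEA rats were held awake in a restraint device for 30 min with needles in ST 36 and SP 6 of the hind limb on one side and no connection to the stimulator, on the day before the operation and directly after it, and HT rats were restrained for the same time without needles. The tissue was collected 24 h after the last session. The comparison therefore asks what needle insertion alone adds to surgery and restraint. NC rats (no hepatectomy), HT + EA rats (the same needles with current) and the central nucleus of the amygdala (CEA) serve as references. The methods divide 12 rats among the 4 groups and state that not all brain samples are from 1 animal though from 1 batch, but do not tie a library to a rat or say whether PVN and CEA libraries share rats, and p-values measure the spread between these libraries only.

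miRNAs are short RNAs that lead the Argonaute complex to partly complementary sites in mRNAs, which are then translated less and degraded sooner. The seed, bases 2 to 8 of the mature miRNA, does most of the pairing, so miRNAs with a common seed share many targets. The PVN holds the neurons that release corticotropin-releasing hormone and start the hypothalamus-pituitary-adrenal (HPA) axis response to surgery. miRNAs of a tissue block also record which cells it held, because miR-9 and miR-124 are typical of neurons, miR-219 of oligodendrocytes, miR-223 of neutrophils, miR-451 of red cells, miR-34b/c of ciliated cells and the miR-200 family of epithelium.

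The mature sequences below belong to the miRNAs on which the comparison turned, with the seed in capitals (RefSeq, GRCr8). The first 5 stayed on the same side of the threshold whichever library was left out. No sequence is shown for miR-200a-3p, miR-200b-3p and miR-429.
miR-182: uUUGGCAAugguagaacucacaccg
miR-873-5p: gCAGGAACuugugagucuccu
let-7f-2-3p: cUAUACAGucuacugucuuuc
miR-376a-3p: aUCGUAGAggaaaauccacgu
miR-3084a-3p: uUCUGCCAguccccuucagaca
miR-183-5p: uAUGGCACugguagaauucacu
miR-96-5p: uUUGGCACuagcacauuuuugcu
miR-200c-3p: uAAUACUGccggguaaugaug
miR-141-3p: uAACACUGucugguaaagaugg
The last 4 lines give the neighbours of miR-182 on chromosome 4 and 2 members of the miR-200 family from the other miR-200 locus. miR-182, miR-96-5p and miR-183-5p come from chr4:59752249-59756127 on the minus strand, and their seeds all differ. miR-200c-3p (chr4:159209969-159209989) and miR-141-3p (chr4:159209540-159209561) lie apart from them on the same chromosome.

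The miR-29 and miR-34 families are shown because the members of each share 1 seed and differed in whether they were called.
miR-29a-3p: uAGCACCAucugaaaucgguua
miR-29b-3p: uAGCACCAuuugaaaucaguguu
miR-29c-3p: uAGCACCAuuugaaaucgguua
miR-34b-5p: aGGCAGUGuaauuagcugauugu
miR-34c-5p: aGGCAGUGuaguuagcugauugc
miR-29b-3p is made from 2 loci, chr13:109098882-109098904 on the plus strand and chr4:60618342-60618364 on the minus strand, so that its counts cannot be given to either. miR-128-3p, miR-495 and miR-653-5p follow for the neuron, Dlk1-Dio3 and calcitonin receptor gene loci described further on.
miR-128-3p: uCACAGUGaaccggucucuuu
miR-495: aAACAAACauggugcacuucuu
miR-653-5p: uUGAAACAuucucuacugaac

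Reads counted on miRNAs ranged from 8789556 to 11050725 in the HT libraries and from 13059380 to 13897929 in the HT + SEA libraries, so that the groups did not overlap in depth. A count of 3, taken as the floor, equals 0.216 to 0.341 CPM (a miRNA's count scaled to a common library total) in these 6 libraries, and this limit covers counting error only. miR-7a-5p, the miRNA typical of the neuroendocrine hypothalamus, stood at 124600 to 147600 CPM in all 6 libraries. HT replicate 3 stood apart. Its root mean square log2 difference from the other 5 libraries was 0.461 to 0.545 over 485 miRNAs, while the other pairs lay between 0.307 and 0.442. Without it, p rests on 2 HT libraries, and calls that it changes are given both ways for the miRNAs named.

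Of 1000 miRNAs tested with edgeR, 83 passed at an unadjusted p under 0.05 (8.3%), the level used by the study, and are the ones called here. They divided into 36 higher (3.6%) and 47 lower (4.7%) in the HT + SEA group. This balance turned on single libraries, with 40 higher and 35 lower without HT replicate 3, and 17 higher and 8 lower without HT + SEA replicate 3. At a Benjamini-Hochberg adjusted p under 0.05, 2 miRNAs remained (0.2%), miR-200a-3p and miR-200b-3p, both of the miR-200 family and both higher. The 3 levels of each group did not overlap for 103 miRNAs (10.3%), 56 of them higher (5.6%) and 47 lower (4.7%), and 40 of these 103 were called. The median log2 fold change over all miRNAs tested was 0.02. Among the 519 miRNAs with a mean of at least 1 CPM, 66 were called (12.7%), 25 higher (4.82%) and 41 lower (7.9%). Some pairs that are 1 measurement enter these counts and those below as 2 miRNAs. Lower, they are miR-1-3p/miR-3571, miR-129-1-3p/miR-129-2-3p, miR-151-5p/miR-3586-3p, miR-29b-3p/miR-3587, miR-29c-3p/miR-3556b, miR-338-3p/miR-3065-5p and miR-539-5p/miR-3576, and higher, miR-183-5p/miR-3553. With identical counts taken once, at all levels, 38 were higher and 44 lower of 987 tested.

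**Figure D1:**
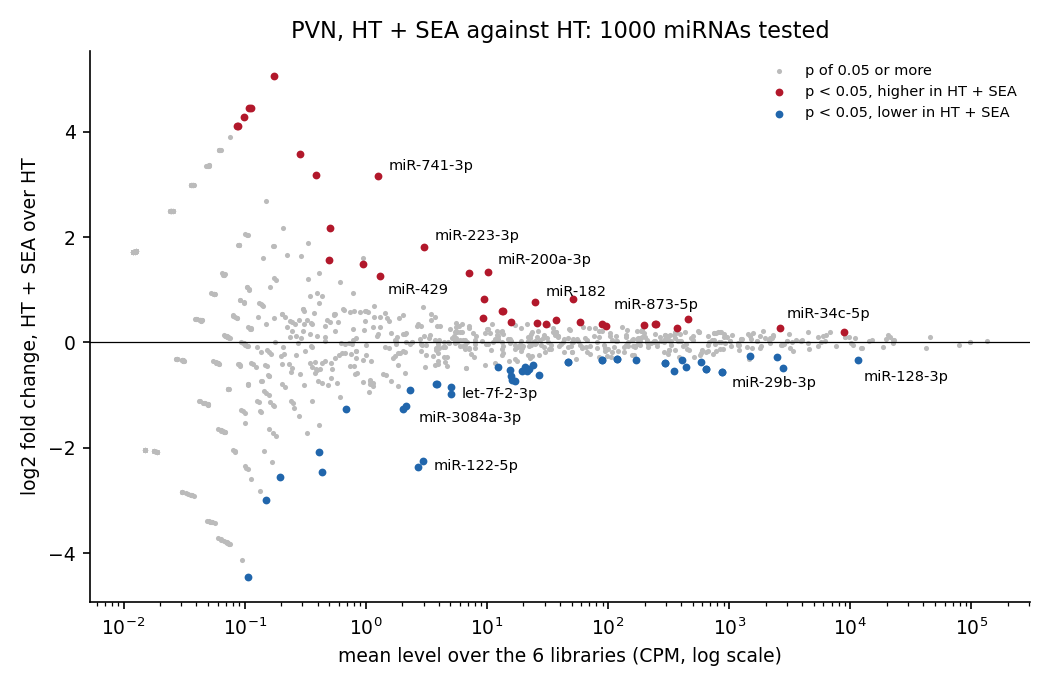
Mean level over the 6 PVN libraries (CPM, log scale) against the log2 fold change of HT + SEA over HT for the 1000 miRNAs tested, with the 36 called higher in red, the 47 called lower in blue and all others in grey. Called miRNAs at high levels lie close to 0, and the largest fold changes belong to miRNAs under 1 CPM. miR-200a-3p (1.34) and miR-200b-3p (1.32) have means of 10.1 and 7.18 CPM, and miR-122-5p (-2.25) and miR-223-3p (1.82) of 2.95 and 3.02 CPM.

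Most of the calls were lost in at least 1 fit without a library. The 6 fits without 1 library gave from 25 to 94 called miRNAs, and 10 of the 83 were called in all 6 of these fits. These were miR-200a-3p, miR-200b-3p, miR-429, miR-182, miR-873-5p and the predicted miRNA novel_381 among those higher, and let-7f-2-3p, miR-3084a-3p, miR-376a-3p and miR-378b among those lower. The other alternative settings in which each could be tested, up to 12, also left all 10 called. Of these 10, novel_381 and miR-378b rested on few reads. novel_381 had 0 reads in each HT library, and leaving out an HT library could not alter that. Its HT + SEA libraries held 4, 5 and 5 reads. miR-378b had 8, 8 and 5 reads in the HT libraries. Its HT + SEA libraries held 2, 2 and 1, each under the floor of 3. Without HT replicate 3, 75 miRNAs were called, of which 40 were among the 83. This library had the highest level of 33 of the 41 lower miRNAs with a mean of at least 1 CPM. Without it 15 of the 41 stayed called, their median log2 fold change went from -0.49 to -0.20 and 3 changed sign, let-7g-3p (-0.73 to 0.26), miR-193b-3p (-0.51 to 0.01) and miR-342-3p (-0.47 to 0.08). HT + SEA replicate 3 was the lowest library for 20 of the 41, and without it 6 stayed called although the median did not shrink (-0.51). Without HT + SEA replicate 1, 12 stayed called with a median of -0.48. Of the 25 higher miRNAs, 20 stayed called without HT replicate 3 and none changed sign. HT + SEA replicate 3 was the highest library for 16 of the 25, and 11 of the 25 stayed called without it, against 13 without HT + SEA replicate 1. In each fit edgeR draws a miRNA's spread towards a common trend, with a weight in degrees of freedom. This weight was 24.5 with all 6 libraries, 5.9 without HT + SEA replicate 3, 9.1 without HT + SEA replicate 1 and infinite without HT replicate 3. Calls kept or lost, here and below, therefore do not measure the influence of the left-out library alone.

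**Figure D2:**
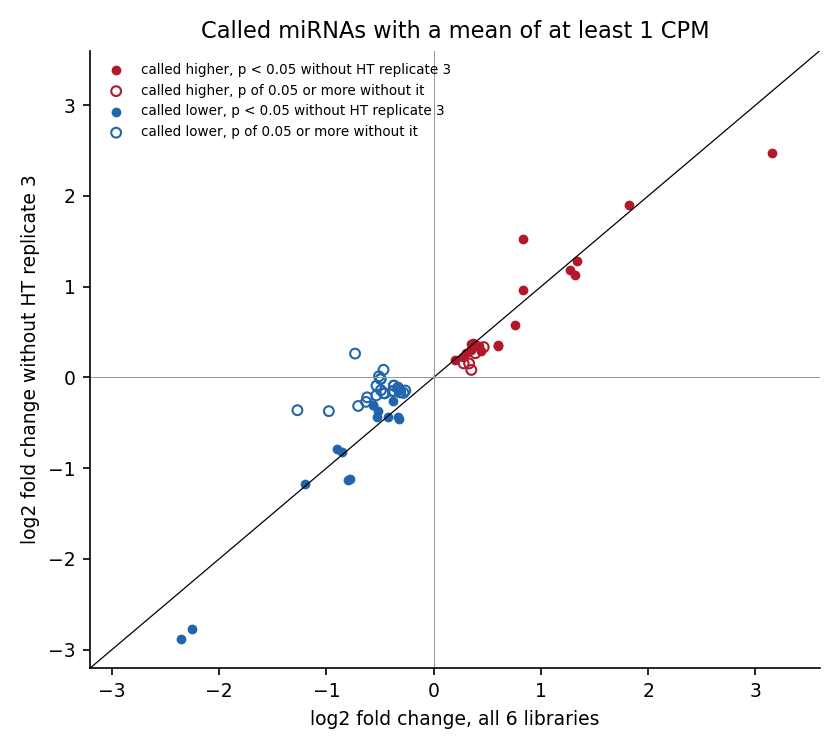
Log2 fold change of the 66 called miRNAs with a mean of at least 1 CPM with all 6 libraries (x axis) and without HT replicate 3 (y axis), filled where p stayed under 0.05, with the line of equality. The median of the 25 higher miRNAs (red) goes from 0.42 to 0.35, with miR-184 moving up from 0.83 to 1.53 and miR-676 down from 0.35 to 0.08, and the median of the 41 lower ones (blue) goes from -0.49 to -0.20.

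The miR-200 and miR-183 clusters held the most calls towards higher levels of the 22 lists examined. The miR-200 family represses the transcription factors ZEB1 and ZEB2 and marks epithelial cells, and the miR-183 cluster is known from sensory cells. Of 11 members tested, 5 were called higher and none lower, against 3.6% higher over all miRNAs. Their levels did not overlap between the groups for these 5, against 5.6% higher without overlap over all miRNAs. Of all 36 miRNAs called higher, 24 did not overlap either. In this list 10 of the 11 log2 fold changes were above 0. The median was 0.60, against 0.02 over all miRNAs tested. Without HT replicate 3 it was 0.63, with 5 called higher, and without HT + SEA replicate 3 it was 0.61, with 4.

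miR-200a-3p was at 7.40, 4.31 and 5.70 CPM in the HT libraries and at 10.6, 18.4 and 14.4 CPM in the HT + SEA libraries. Every HT + SEA library stood above every HT library, with group means of 5.80 ± 1.54 and 14.5 ± 3.85 CPM (SD, n = 3). The log2 fold change was 1.34 (SE 0.24, edgeR adjusted p = 0.00678), and it lay between 1.07 and 1.58 whichever library was left out. The adjusted p was less stable than the size, since it ranged from 1.3e-06 to 0.45 over the settings that keep all 6 libraries.

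miR-200b-3p, made from the same primary transcript as miR-200a, was at 5.80, 3.34 and 3.26 CPM in the HT libraries. In the HT + SEA libraries it was at 8.81, 9.21 and 12.6 CPM, again with no overlap. The level rose 2.49-fold, a log2 fold change of 1.32 (SE 0.26, edgeR adjusted p = 0.0105, from 1.2e-05 to 0.33 over the settings that keep all 6 libraries). miR-429, the third miRNA of this locus, rose from 1.02, 0.539 and 0.724 CPM to 1.84, 1.58 and 2.08 CPM. These levels rest on 5 to 9 reads in the HT libraries and on 22 to 28 reads in the HT + SEA libraries, and the log2 fold change was 1.27 (SE 0.45, edgeR adjusted p = 0.32). The other miR-200 locus gave smaller values that were not called, with log2 fold changes of 0.55 (SE 0.32) for miR-200c-3p and 0.64 (SE 0.59) for miR-141-3p.

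miR-182 was the most abundant called member of the 2 clusters. It was at 21.6, 19.7 and 14.8 CPM in the HT libraries and at 25.8, 29.4 and 39.3 CPM in the HT + SEA libraries. The groups did not overlap, and the log2 fold change was 0.76 (SE 0.19, edgeR adjusted p = 0.10). miR-183-5p, its neighbour, rose from 10.7 ± 2.90 to 16.2 ± 1.71 CPM (SD, n = 3), with a log2 fold change of 0.60 (SE 0.21, edgeR adjusted p = 0.32), and it was 0.52 and not called without HT + SEA replicate 3. miR-3553, which is read from the opposite strand of miR-183, had nearly the same counts and is no second measurement. miR-96-5p, of the same cluster, had a log2 fold change of 0.08 (SE 0.25) and was not called, and its difference from the other 2 was not tested.

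The same contrast in the CEA shares no library with the PVN. In the CEA, miR-200a-3p was at 2.31, 3.34 and 0.517 CPM after HT and at 5.52, 9.48 and 5.05 CPM after HT + SEA. The groups did not overlap there either, with a log2 fold change of 1.62 (SE 0.41, edgeR adjusted p = 0.0483). The log2 fold change of miR-200b-3p in the CEA was 1.96 (SE 0.45, edgeR adjusted p = 0.0226). The differences between the nuclei, -0.26 (SE 0.52) for miR-200a-3p and -0.62 (SE 0.48) for miR-200b-3p, did not pass the test of the interaction (edgeR unadjusted p = 0.62 and 0.21). miR-182 differed in this respect, with a log2 fold change of 0.04 (SE 0.28) in the CEA and a difference between the nuclei of 0.75 (SE 0.35, edgeR unadjusted p = 0.0362, adjusted p = 1.0).

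The other PVN groups showed how far single libraries can carry these miRNAs. miR-200a-3p was at 6.23, 41.5 and 9.10 CPM in the NC libraries and at 10.8, 38.3 and 5.33 CPM in the HT + EA libraries, so that replicate 2 stood far above the rest in each. The summed level of the 11 miRNAs was 41.9 to 57.7 CPM in the HT libraries and 75.7 to 98.5 CPM in the HT + SEA libraries. In the NC libraries the sum ran from 71.4 to 167 CPM and in the HT + EA libraries from 51.9 to 157 CPM. Between HT + EA and HT + SEA, miR-200a-3p had a log2 fold change of 0.29 (SE 0.15, edgeR adjusted p = 0.71) and was not called. In bulk tissue, more cells of a type and more RNA per cell cannot be told apart, and the part of the epithelial cells in a tissue block was not tested.

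**Figure D3:**
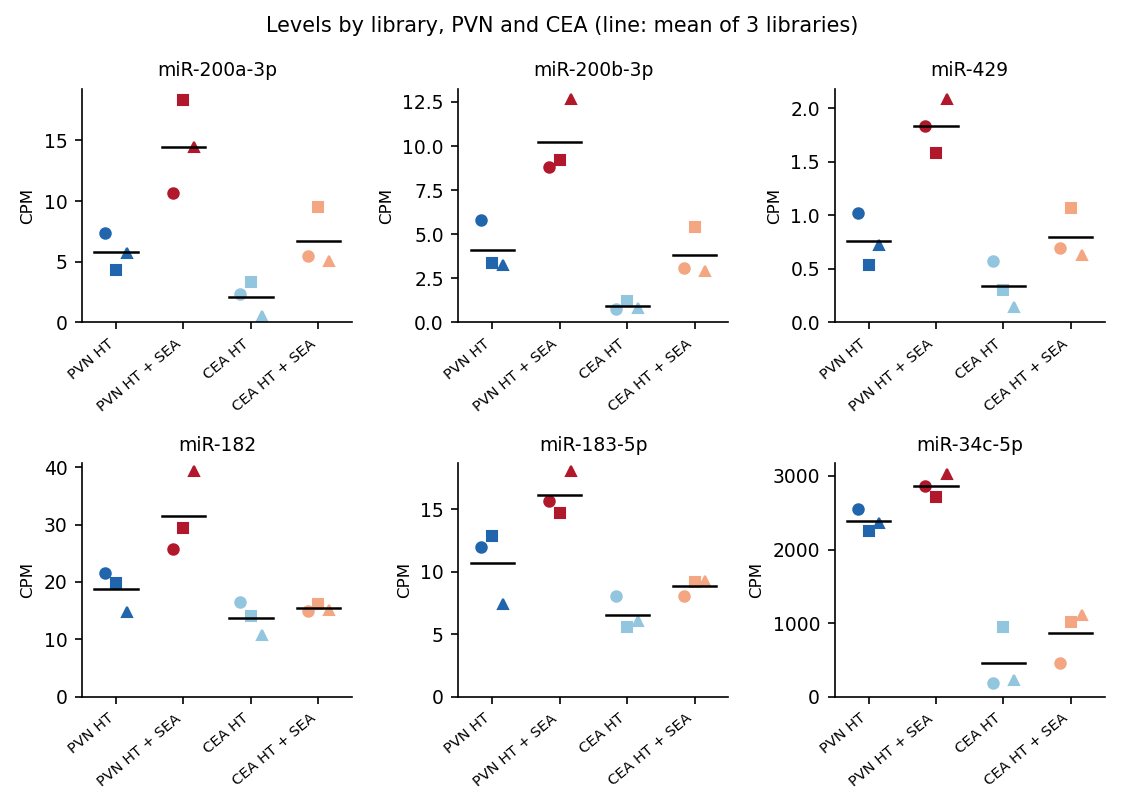
Level in CPM of 6 miRNAs in the HT and HT + SEA libraries of the PVN and the CEA, 1 point per library (circle, square and triangle for replicates 1, 2 and 3) with the mean as a line. In the PVN every HT + SEA point lies above every HT point for all 6, and in the CEA this holds for miR-200a-3p, miR-200b-3p, miR-429 and, by a narrow margin, miR-183-5p.

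Among the other miRNAs whose call did not depend on any 1 library, 3 were lower in known miRNAs above 1 CPM. let-7f-2-3p, the arm opposite let-7f on the precursor let-7f-2, was at 6.37, 6.04 and 7.24 CPM in the HT libraries and at 3.37, 3.88 and 3.49 CPM in the HT + SEA libraries. The groups lay far apart compared with their spread, with a log2 fold change of -0.85 (SE 0.25, edgeR adjusted p = 0.19). The main arm let-7f-5p stood at 21430 to 25630 CPM in the 6 libraries, with a log2 fold change of 0.05 (SE 0.10).

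miR-3084a-3p was at 3.87, 1.83 and 3.26 CPM in the HT libraries and at 1.46, 1.22 and 1.19 CPM in the HT + SEA libraries. These are 17 to 36 reads against 16 to 19 reads, and the log2 fold change was -1.20 (SE 0.37, edgeR adjusted p = 0.24). miR-376a-3p, from the imprinted Dlk1-Dio3 locus, was at 20.7, 21.0 and 27.1 CPM against 16.9, 14.3 and 16.0 CPM. Its groups did not overlap, and the log2 fold change was -0.53 (SE 0.18, edgeR adjusted p = 0.29). In the CEA let-7f-2-3p had a log2 fold change of -0.04 (SE 0.33) and miR-3084a-3p one of 0.09 (SE 0.45). The difference between the nuclei had an edgeR unadjusted p of 0.0487 for let-7f-2-3p and 0.0318 for miR-3084a-3p, with adjusted p-values of 1.0.

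miR-873-5p was the most abundant of the 10, at 206, 221 and 218 CPM in the HT libraries and at 293, 266 and 260 CPM in the HT + SEA libraries. The spread within each group was small, with means of 215 ± 7.50 and 273 ± 17.6 CPM (SD, n = 3), and the log2 fold change was 0.36 (SE 0.12, edgeR adjusted p = 0.32). The other arm of the precursor, miR-873-3p, moved the same way, from 50.5 ± 1.82 to 65.9 ± 10.1 CPM (SD, n = 3). Its log2 fold change was 0.39 (SE 0.15, edgeR adjusted p = 0.41), and without HT + SEA replicate 1 it was 0.29 and not called. In the HT + EA libraries miR-873-5p ranged from 165 to 275 CPM, across both of the other groups.

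The mature sequence of miR-653-5p lies at chr4:32647455-32647475 on the minus strand within the calcitonin receptor gene Calcr. This miRNA was at 435, 397 and 328 CPM in the HT libraries and at 558, 417 and 599 CPM in the HT + SEA libraries. HT + SEA replicate 2 fell within the HT range, and the log2 fold change was 0.44 (SE 0.14, edgeR adjusted p = 0.24). Without HT + SEA replicate 3 it was 0.34 and not called. In the CEA, where the level was 21.4 to 79.6 CPM, the log2 fold change was 0.56 (SE 0.26, edgeR adjusted p = 0.96).

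**Figure D4:**
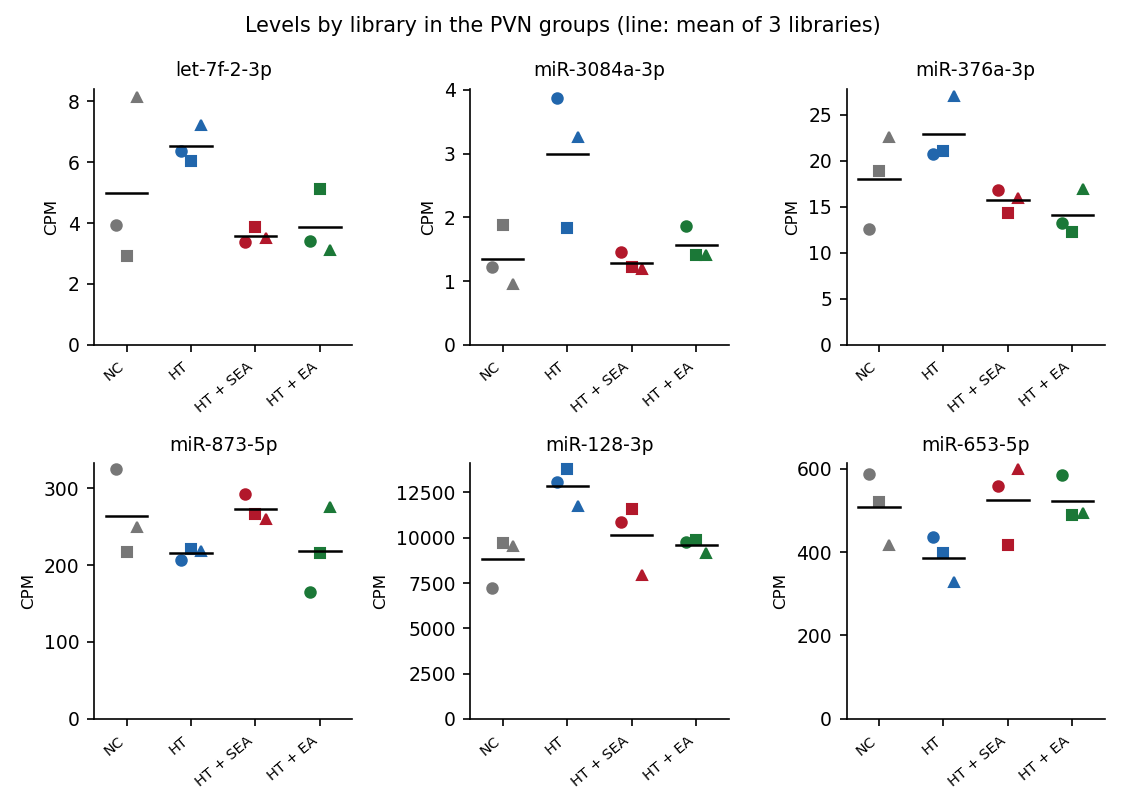
Level in CPM of 6 miRNAs in the NC, HT, HT + SEA and HT + EA libraries of the PVN, 1 point per library (circle, square and triangle for replicates 1, 2 and 3) with the mean as a line. The HT and HT + SEA points do not overlap except for miR-653-5p, and for let-7f-2-3p and miR-873-5p the NC libraries span both groups.

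Among markers of ciliated and ependymal cells, which line the third ventricle beside the PVN, 2 of 6 were called higher (3.6% over all miRNAs) and none lower, with a median log2 fold change of 0.24. miR-34c-5p was at 2545, 2251 and 2364 CPM in the HT libraries and at 2864, 2707 and 3030 CPM in the HT + SEA libraries. The groups did not overlap, and the log2 fold change was 0.27 (SE 0.11, edgeR adjusted p = 0.41). Without HT replicate 2 it was 0.20 and without HT + SEA replicate 3 it was 0.24, neither of them called. The other arm, miR-34c-3p, had a log2 fold change of 0.42 (SE 0.16, edgeR adjusted p = 0.40), and was not called without HT + SEA replicate 2 (0.37) or replicate 3 (0.35). miR-34b-5p, which shares the seed and the precursor transcript of miR-34c-5p, had -0.04 (SE 0.18) and miR-34b-3p 0.22 (SE 0.15), neither of them called. miR-34b-3p was called at 0.30 without HT replicate 3. Without HT + SEA replicate 3 none of the 6 was called. In the CEA 4 of the 6 were called higher (4.7% called in either direction over all miRNAs there) with a median of 0.87, at levels of miR-34c-5p from 187 to 1113 CPM that overlapped between the groups.

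The miR-29 family, which represses DNA methyltransferases and collagens and is abundant in mature neurons, had 3 of 6 members called lower, against 4.7% lower over all miRNAs, and none higher. The median was -0.36. Without HT replicate 3 it was -0.11 with 1 called, and without HT + SEA replicate 3 it was -0.36 with none called.

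miR-29b-3p was at 826, 845 and 1455 CPM in the HT libraries and at 695, 778 and 600 CPM in the HT + SEA libraries, with no overlap. HT replicate 3 stood far above the others. The log2 fold change was -0.57 (SE 0.15, edgeR adjusted p = 0.10), and without that library it was -0.30, still called (edgeR unadjusted p = 0.0021). Without HT + SEA replicate 3 it was -0.47 and not called. miR-3587, annotated on the opposite strand at the chromosome 4 locus, carried nearly the same counts and is no second measurement.

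miR-29c-5p was at 266, 324 and 661 CPM against 256, 297 and 294 CPM, with overlap, and its log2 fold change of -0.53 (SE 0.19, edgeR adjusted p = 0.32) became -0.09 without HT replicate 3. miR-29c-3p went from -0.32 (SE 0.15) to -0.13 in the same way. miR-29a-3p, the most abundant member at a mean of 4547 CPM, had a log2 fold change of -0.12 (SE 0.10) and was not called. In the CEA, miR-29b-3p had a log2 fold change of -0.46 (SE 0.19, edgeR adjusted p = 0.68) and miR-29c-5p one of -0.49 (SE 0.21, edgeR unadjusted p = 0.0195). The PVN and CEA values of miR-29b-3p differed by -0.08 (SE 0.26, edgeR unadjusted p = 0.77).

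Of 7 markers of neurons, 2 were called lower (4.7% over all miRNAs) and none higher, with a median log2 fold change of -0.05. The list had 1 called higher and 1 lower without HT replicate 3, and without HT + SEA replicate 3 it had none. miR-128-3p, which is abundant in neurons, was at 13100, 13780 and 11730 CPM in the HT libraries and at 10860, 11580 and 7961 CPM in the HT + SEA libraries. All 3 HT + SEA libraries lay below the HT libraries, with a log2 fold change of -0.33 (SE 0.12, edgeR adjusted p = 0.34). It was -0.43 without HT replicate 3, and -0.18 and not called without HT + SEA replicate 3. miR-138-5p had -0.33 (SE 0.14), and -0.11 without HT replicate 3. miR-9a-5p at a mean of 96730 CPM and miR-124-3p at 1430 CPM had log2 fold changes of 0.01 (SE 0.09) and 0.16 (SE 0.12) and were not called. miR-124-3p was called higher at 0.23 without HT replicate 3. The summed level of the list was 110500 to 120500 CPM in the HT libraries and 106600 to 116300 CPM in the HT + SEA libraries.

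The miR-132/212 precursor is transcribed in response to neuronal activity through CREB. Of 5 activity-regulated miRNAs, 1 was called (8.3% over all miRNAs), miR-212-5p, at 201, 205 and 167 CPM against 176, 146 and 133 CPM. The ranges overlapped, and the log2 fold change was -0.33 (SE 0.14, edgeR adjusted p = 0.52). It was called in 2 of the 6 fits without 1 library, those without HT replicate 3 and without HT + SEA replicate 1. miR-132-3p, the main product of the precursor, had -0.12 (SE 0.12) and was not called. In the CEA, where 4.7% of all miRNAs were called, 4 of the 5 were called lower with a median of -0.57, and there miR-212-5p had -0.71 (SE 0.23, edgeR adjusted p = 0.29). The difference of this miRNA between the nuclei was 0.42 (SE 0.33, edgeR unadjusted p = 0.21).

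The Dlk1-Dio3 region, an imprinted locus on chromosome 6 with many neuronal miRNAs, was called at about the rate of all miRNAs (8.3%). Of 85 miRNAs tested, 2 were called higher and 5 lower, and the median log2 fold change was 0.00. The counts were 2 and 6 without HT replicate 3, 1 and 3 without HT + SEA replicate 1, and 0 and 1 without HT + SEA replicate 3. miR-495, the most abundant of those lower, was at 2411, 2541 and 4899 CPM in the HT libraries and at 2286, 2222 and 2375 CPM in the HT + SEA libraries. HT replicate 3 alone stood far above, the log2 fold change was -0.49 (SE 0.15, edgeR adjusted p = 0.24), and without that library it was -0.14 (edgeR unadjusted p = 0.14). miR-379-5p, among those higher, went from 8355 ± 328 to 9516 ± 410 CPM (SD, n = 3) without overlap, with a log2 fold change of 0.20 (SE 0.10, edgeR adjusted p = 0.59). It was called in 2 of the 6 fits without 1 library and in 3 of the 12 other settings. miR-370-5p, the other 1 higher, went from 13.8 ± 1.45 to 17.9 ± 1.67 CPM (SD, n = 3), with 0.39 (SE 0.19), and was called in none of the 6 fits without 1 library. Beside miR-376a-3p and miR-495, those lower were miR-136-5p at -0.26 (SE 0.13), miR-412-3p at -0.46 (SE 0.22) and miR-539-5p at -0.31 (SE 0.15). Without HT replicate 3 these 3 were at -0.14, -0.18 and -0.16 and were not called.

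Large families with high levels stayed close to 0. With all 6 libraries, none of 9 let-7 miRNAs, 7 miR-30 miRNAs or 4 miR-181 miRNAs was called. The median log2 fold changes were 0.01, 0.10 and 0.04, and -0.10, 0.05 and -0.05 without HT replicate 3. Of 12 listed members of the miR-17/92 clusters, 1 was called (8.3% over all miRNAs), miR-18a-5p. A further arm of the locus outside the list, miR-20a-3p, was called higher on 0 reads in each HT library and 3, 2 and 3 reads in the HT + SEA libraries, and was called in 1 of the 6 fits without 1 library. miR-18a-5p was at 1.59, 1.40 and 5.70 CPM in the HT libraries and at 1.07, 1.44 and 1.04 CPM in the HT + SEA libraries. HT replicate 3 set the difference, since the log2 fold change of -1.27 (SE 0.44, edgeR adjusted p = 0.32) was -0.36 and not called without it.

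Among 9 miRNAs studied for corticotropin-releasing hormone, its receptor or the glucocorticoid receptor, 1 was called higher (3.6% over all miRNAs) and 1 lower (4.7%), with a median log2 fold change of -0.16. Leaving out HT replicate 3 gave 2 higher, none lower and a median of 0.13, and leaving out HT + SEA replicate 3 gave no call. The 2 called were miR-34c-5p and miR-18a-5p, described above. None of 11 miRNAs studied for the mu opioid receptor was called, with log2 fold changes from -0.10 to 0.12, and 8 of these belong to the let-7 family, miR-98-5p included. None of 7 miRNAs typical of the neuroendocrine hypothalamus was called, with log2 fold changes from -0.31 to 0.21.

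The study ties 6 miRNAs to the genes Mgll and Nsmf in the PVN. All 6 had a log2 fold change above 0, with a median of 0.22, and 1 was called (3.6% higher over all miRNAs), miR-3099. miR-92b-3p (0.26) and miR-1224 (0.26) were called too without HT replicate 3, and without HT + SEA replicate 1 or replicate 3 none was. It was at 83.0, 88.0 and 86.8 CPM in the HT libraries and at 102, 93.3 and 121 CPM in the HT + SEA libraries. The groups did not overlap, and the log2 fold change was 0.31 (SE 0.14, edgeR adjusted p = 0.59), which was called in 1 of the 6 fits without a library. Of the 35 node miRNAs that the study chose on these PVN libraries from HT against NC and HT + EA against HT, 2 were called higher and 7 lower (8.3% in either direction over all miRNAs), with a median of -0.09. The split was 4 higher and 5 lower without HT replicate 3, and 0 and 1 without HT + SEA replicate 3. Called members not named elsewhere were miR-187-5p at 1.57 (SE 0.76) on 1 to 3 reads against 3 to 18, novel_583 at -2.55 (SE 1.16) on 1 to 5 reads against 0 to 1, miR-3586-3p at -0.37 (SE 0.18) and miR-497-5p. miR-497-5p was at 30.5, 23.7 and 29.1 CPM in the HT libraries and at 21.6, 21.8 and 18.1 CPM in the HT + SEA libraries, without overlap, and its log2 fold change of -0.42 (SE 0.17, edgeR adjusted p = 0.50) was -0.32 without HT replicate 1 and -0.34 without HT + SEA replicate 3, not called in either. The list shares the HT libraries with this comparison and is not independent evidence of a direction.

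Some of the largest fold changes were set by 1 library. Among the lower miRNAs with the smallest p, HT replicate 3 was far above the rest for miR-190a-5p, at 13.9, 15.7 and 30.6 CPM against 11.3, 13.2 and 11.97 CPM, with a log2 fold change of -0.70 (SE 0.22, edgeR adjusted p = 0.24) that was -0.31 without it. miR-31a-3p went from -0.98 (SE 0.31) to -0.37 and miR-324-5p from -0.62 (SE 0.21) to -0.22 in the same way, and none of the 3 was called without this library. miR-223-3p, typical of neutrophils, was at 1.02, 1.40 and 1.54 CPM in the HT libraries and at 11.1, 1.58 and 1.49 CPM in the HT + SEA libraries. Replicate 1 alone stood above the HT range by far, the log2 fold change was 1.82 (SE 0.52, edgeR adjusted p = 0.17), and without that library it was 0.22 and not called. The NC libraries held 22.3, 88.9 and 81.2 CPM and the HT + EA libraries 8.98 to 11.9 CPM. In the CEA, HT + SEA replicate 1 was again the high library, at 19.0 CPM against 0.886 to 1.74 CPM in the other 5. Of 10 miRNAs of myeloid cells and inflammation, miR-223-3p was the only 1 called, near the 8.3% over all miRNAs, and miR-142-3p had a log2 fold change of 0.13 (SE 0.16).

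miR-10b-5p, from the HoxD cluster, was at 134 CPM in the same PVN HT + SEA replicate 1, and at 28.0 to 45.1 CPM in the other 5 libraries. The log2 fold change of 0.83 (SE 0.32, edgeR adjusted p = 0.41) was -0.25 without this library and 0.64, not called, without HT replicate 2. Of 6 miRNAs of the Hox clusters tested, it was the only 1 called (8.3% over all miRNAs), and miR-10a-5p had 0.07 (SE 0.17). The other 4 had a mean under 1 CPM, and miR-196a-5p and miR-196b-5p were at 0 in every HT library and in 2 of the 3 HT + SEA libraries. miR-741-3p, from an X chromosome cluster known for expression in testis, rested on 2, 5 and 0 reads in the HT libraries and on 70, 6 and 14 reads in the HT + SEA libraries. Its log2 fold change was 3.15 (SE 0.78, edgeR adjusted p = 0.10), and without HT + SEA replicate 1 it was 1.54 and not called. Within that cluster 3 of 13 miRNAs tested at chrX:150462909-150488232 were called (3.6% higher over all miRNAs), miR-741-3p, miR-871-3p and miR-881-3p. miR-871-3p had 0, 1 and 0 reads in the HT libraries and 16, 1 and 4 in the HT + SEA libraries, and miR-881-3p 3, 8 and 3 against 45, 3 and 7, so that HT + SEA replicate 1 was the highest for all 3. Without it miR-881-3p went from 1.49 to -0.40. In the adjoining stretch chrX:150444098-150451638, 2 of 5 were called, miR-743b-3p with 3, 2 and 0 reads against 21, 3 and 9, and miR-743b-5p with 0, 1 and 1 reads against 19, 2 and 7. Neither was called without HT + SEA replicate 1.

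miR-122-5p, the main miRNA of hepatocytes, was at 12.4, 1.08 and 1.18 CPM in the HT libraries and at 1.23, 1.08 and 0.744 CPM in the HT + SEA libraries. HT replicate 1 alone was high, so that the log2 fold change of -2.25 (SE 0.59, edgeR adjusted p = 0.10) was -0.11 without it. The other 2 miRNAs of liver tested, miR-192-5p and miR-194-5p, had 0.22 (SE 0.12) and 0.09 (SE 0.13) and were not called, but miR-192-5p was called at 0.23 without HT replicate 3. miR-122b was called lower too, again with HT replicate 1 highest. Its mean over the 6 libraries was 2.67 CPM, against 2.95 CPM for miR-122-5p. miR-1-3p, of striated muscle, was likewise highest in HT replicate 1, at 8.08 CPM against 2.45 to 3.88 CPM in the other 5 libraries, and its log2 fold change of -0.79 (SE 0.34) was -0.19 and not called without that library. It was the only 1 called of 6 striated muscle miRNAs (4.7% lower over all miRNAs), whose median was -0.54, and -0.16 without HT replicate 3. miR-133a-3p, at 6.83, 6.04 and 10.8 CPM against 5.90, 5.18 and 5.58 CPM, did not overlap between the groups, and its log2 fold change of -0.49 (SE 0.24) was not called. Of 4 red cell miRNAs, miR-486 was called higher (3.6% over all miRNAs), from 78.4 ± 4.75 to 99.3 ± 21.9 CPM (SD, n = 3), and miR-451-5p stood at 131 to 150 CPM in all 6 libraries with no call. miR-486 had a log2 fold change of 0.35 (SE 0.15), which was 0.17 and not called without HT + SEA replicate 3. Of the 6 miRNAs of oligodendrocytes, whose median log2 fold change was 0.09, miR-338-3p was called lower (4.7% over all miRNAs), with a log2 fold change of -0.38 (SE 0.15) that was -0.15 and not called without HT replicate 3. None of the 6 miRNAs of endothelium and mural cells was called. The part of blood or of neighbouring tissue in these values was not tested.

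**Figure D5:**
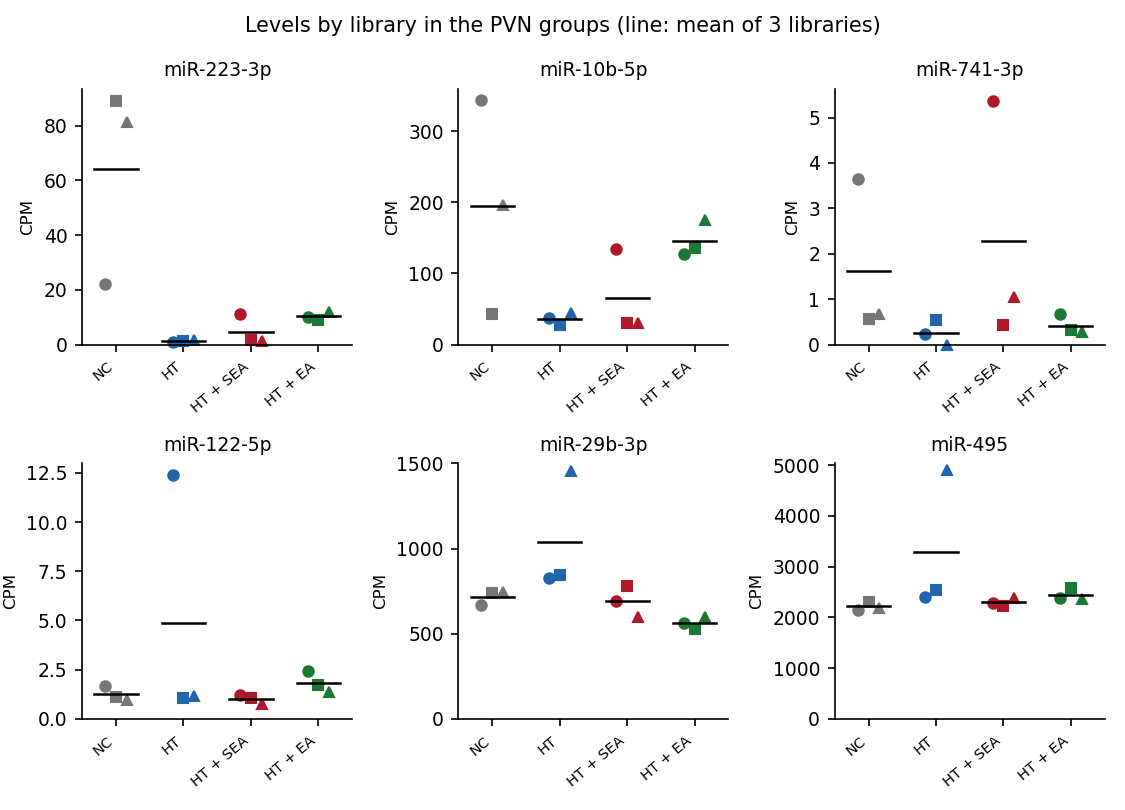
Level in CPM of 6 called miRNAs in the NC, HT, HT + SEA and HT + EA libraries of the PVN, 1 point per library (circle, square and triangle for replicates 1, 2 and 3) with the mean as a line. HT + SEA replicate 1 is high for miR-223-3p, miR-10b-5p and miR-741-3p, HT replicate 1 for miR-122-5p and HT replicate 3 for miR-29b-3p and miR-495.

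Of the 315 predicted miRNAs tested, 3 were called higher and 5 lower, below the 8.3% called over all miRNAs. novel_381, called in each fit without 1 library, had 0 reads in each HT library, which allows up to 0.341 CPM in the smallest of them. It had 4, 5 and 5 reads in the HT + SEA libraries, at 0.306, 0.360 and 0.372 CPM, so these levels lie around that limit. In the CEA it had 7, 0 and 4 reads after HT and 1, 0 and 1 after HT + SEA, the opposite direction (edgeR unadjusted p = 0.047), and the difference between the nuclei had an edgeR unadjusted p of 8.1e-04 and an adjusted p of 0.556. In all, 17 of the 83 called miRNAs had a mean under 1 CPM.

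Between the nuclei, the effect of needle insertion was compared as an interaction over 12 libraries. Of 1052 miRNAs, 28 had an unadjusted p under 0.05 in edgeR (2.66%) and none an adjusted p under 0.05. DESeq2 gave 11 and also none. HT + SEA against HT in the CEA alone gave 47 called of 999 (4.7%), with 4 at an adjusted p under 0.05 (0.4%). Those 4 include miR-200a-3p, miR-200b-3p and miR-223-3p, given above, and miR-344g, at 1.81, 4.36 and 2.07 CPM after HT and 0.838, 0.841 and 0.473 CPM after HT + SEA in the CEA. In the PVN, miR-344g was called lower too, with a log2 fold change of -0.90 (SE 0.37, edgeR adjusted p = 0.50) and overlapping groups. No difference between the nuclei passed the adjusted threshold for any of these 4.

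Needling with current was compared with needling without it in the PVN, with the HT + SEA libraries shared between this comparison and the one above. Of 994 miRNAs tested, 71 were called (7.14%) and 27 had an adjusted p under 0.05 (2.72%). The 71 divided into 26 higher and 45 lower after current, and with upper quartile scaling 50 of 83 were higher. Some miRNAs with uneven HT + SEA libraries passed the adjusted threshold here. The log2 fold changes were 1.17 for miR-10b-5p (SE 0.11, edgeR adjusted p = 1.8e-23), 1.15 for miR-223-3p (SE 0.19, edgeR adjusted p = 3.2e-07), -1.17 for miR-184 (SE 0.18, edgeR adjusted p = 6.3e-08), -2.39 for miR-741-3p (SE 0.43, edgeR adjusted p = 3.5e-06) and -3.13 for miR-881-3p (SE 0.62, edgeR adjusted p = 4.4e-05). miR-136-5p had -0.41 (SE 0.09, edgeR adjusted p = 3.8e-04). miR-29b-3p was lower with current, at 527 to 596 CPM, with a log2 fold change of -0.31 (SE 0.09, edgeR adjusted p = 0.0316) against HT + SEA. miR-873-5p had -0.33 (SE 0.10, edgeR adjusted p = 0.0316), its HT + EA libraries spanning 165 to 275 CPM. miR-182, let-7f-2-3p, miR-376a-3p and miR-653-5p were not called between these groups, with log2 fold changes of -0.07 (SE 0.13), 0.09 (SE 0.23), -0.16 (SE 0.15) and -0.01 (SE 0.09). The fit of this comparison took the spread of each miRNA from all miRNAs together (infinite prior degrees of freedom), which makes the p of miRNAs that vary much between libraries too small.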

How the data were processed

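Small RNA was measured in 6 PVN libraries (3 HT + SEA, 3 HT), with the other 18 as references. The authors deposited raw read counts for 1098 miRNAs, 703 known and 395 predicted. The methods describe NEBNext small RNA libraries, read cleaning by adapter, base certainty and quality, and mapping to the rat genome. HISAT2 and featureCounts are named for the sequencing as a whole, miRNA counting and its use of strand are not given in the sources used here, and the submitters' processing notes name GRCh38 and hg38. In 27 pairs of known miRNAs, 24 of them on opposite strands of 1 locus, counts were identical or within 2% and are 1 measurement. A further 24 columns of normalized values were not used.

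Counts were tested with edgeR 4.0.16 (R 4.3.3, limma 3.58.1), with TMM scaling and the quasi-likelihood test, on every miRNA with 1 count or more in the libraries fitted. SE was taken as the size of the log2 fold change over the root of the F statistic. The study's unadjusted threshold was used, with Benjamini-Hochberg values over all miRNAs tested beside it. DESeq2 1.42.0, other scalings, filters, spread estimates, thinning, a replicate block and leaving out each library were alternatives. Depth ranged from 8789556 to 13897929 counts per library. On simulated counts for 951 miRNAs of this comparison, 90% of miRNAs changed by 1 on the log2 scale and 3.99% of unchanged ones were called. The changed ones were drawn only from miRNAs with a mean of at least 1 CPM. No simulated library was set apart as HT replicate 3 was, so these rates need not hold for the real libraries. Named were miRNAs with an adjusted p under 0.05, the 12 known ones with the smallest p in each direction at 1 CPM or more, called members of 22 lists (abundant ones of lists with no call are given by their list), tissue checks and those the study ties to Mgll and Nsmf. A few others, such as miR-378b, miR-96-5p, miR-676, miR-193b-3p, miR-342-3p, let-7g-3p and miR-881-3p, were named after their values were seen. Members and lists were chosen with earlier results of these data known. Sequences came from RefSeq (GRCr8), where 637 of the 703 known names matched. Figures were made with Python 3.11.15, pandas 2.3.3, numpy 2.4.6 and matplotlib 3.10.9.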

Additional observations from a re-analysis of the deposited data

How the results depend on the processing

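The number of called miRNAs in PVN HT + SEA against HT, 83, became 51 (DESeq2), 47 (filterByExpr) and 55 (predicted miRNAs left out), and it stayed within 1.5 times the 83 with other scalings, at least 10 counts, identical counts once, the robust spread estimate, thinned libraries and all groups in the fit. Without 1 library it ran from 25 to 94. The number at an adjusted p under 0.05, 2, was 7 with library totals, 9 with upper quartile, 6 with the robust estimate, and 0 with filterByExpr, with a minimum of 10 counts, without predicted miRNAs, with thinned libraries and with all groups in the fit, where 47, 58, 55, 70 and 93 had an unadjusted p under 0.05. Without 1 library it ran from 0 to 31, and without HT replicate 3 and HT + SEA replicate 1 together, a choice made after seeing the data, it was 8, with 78 called. The fits without HT replicate 1 and without HT replicate 3, the robust estimate and the block took 1 spread trend for all miRNAs, which makes p too small for miRNAs that vary much. The fit without HT + SEA replicate 3 gave the trend a weight of 5.9 degrees of freedom, against 24.5 with all 6 libraries.

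Replicate numbers did not pair the PVN HT and HT + SEA libraries. Their deviations from the group means correlated at 0.06, -0.03 and 0.15 across 485 miRNAs for numbers 1, 2 and 3. Pairing by number within the CEA, across the nuclei or with the HT + EA libraries was not tested. Under a replicate block, 68 were called and 11 had an adjusted p under 0.05 in PVN HT + SEA against HT, 31 were called in the CEA (47 without the block) and 2 interactions had an adjusted p under 0.05 (0 without it). The block left 78 called between HT + EA and HT + SEA.

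HT + EA against HT + SEA, 71 called, gave 47 with DESeq2 and 38 with all groups in the fit, and 62 to 86 without 1 library. HT + SEA against HT in the CEA, 47 called, gave 21 with DESeq2, 11 with filterByExpr, 21 with a minimum of 10 counts and 16 without predicted miRNAs, and 17 to 58 without 1 library. The interaction, with 0 at an adjusted p under 0.05, gave 1 with thinned libraries, and 0 to 8 without 1 library. The causes were not tested.

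Among called miRNAs, the log2 fold change of miR-10b-5p ran from -0.249 to 1.17 without 1 library and was -0.0766 without HT replicate 3 and HT + SEA replicate 1. That of miR-29c-5p ran from -0.751 to -0.0903 and was 0.00294 without these 2 libraries. Those of let-7g-3p, miR-193b-3p and miR-342-3p changed sign without HT replicate 3 and that of miR-881-3p without HT + SEA replicate 1, as given above. The miRNAs that follow were not called with all 6 libraries. Without 1 library, let-7f-5p ran from -0.0747 to 0.0980, let-7g-5p from -0.0810 to 0.296, let-7i-5p from -0.16 to 0.105, miR-135a-5p from -0.480 to 0.0241, miR-181a-5p from -0.0511 to 0.0792, miR-181d-5p from -0.0198 to 0.198, miR-30a-5p from -0.214 to 0.00311, miR-667-5p from -0.0169 to 0.0987 and miR-7a-5p from -0.0551 to 0.142. Without HT replicate 3 and HT + SEA replicate 1, let-7f-5p was at 0.107, let-7g-5p at -0.0819, miR-135a-5p at 0.0478, miR-181a-5p at -0.0314, miR-181d-5p at -0.0338, miR-30a-5p at 0.0761, miR-328a-3p at -0.00419 (up to 0.111 without 1 library) and miR-7a-5p at -0.0848. let-7i-5p was at 0.00239 with the replicate block and miR-7a-5p at -0.00431 in thinned libraries. Of the other values of single called miRNAs, 195 of those without 1 library or without these 2 stayed called and 117 did not, and of those under other settings 462 stayed called and 72 did not.

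HT + SEA libraries were deeper than all HT libraries, and changes smaller than 1 on the log2 scale were not simulated.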
